A study of Mus musculus with 18 samples.

Results

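Interferon-stimulated genes are a set of 37 genes defined here by name: genes of the type I interferon response and GTPases of the interferon-gamma type. They were picked from the 55487 gene identifiers of the deposited count table, which holds all 37. RNA was sequenced from YFP-positive natural killer (NK) cells sorted from mouse spleen, in 18 libraries that fall into 6 groups of 3. Mice of both genotypes were Rosa YFP/YFP and carried Ncr1 CRE-ERT2, and the knock-out mice were in addition Acly fl/fl. Acly encodes ATP-citrate lyase, the enzyme that makes cytosolic acetyl-CoA from citrate. All mice, wild type included, ate a tamoxifen diet for 48 hours, and cells were sorted 5 days after the diet ended. Cre is driven by Ncr1, an NK-cell receptor gene, so deletion was induced by the diet in NK-lineage cells, and YFP marked cells in which Cre had acted. Each genotype was sequenced as fresh cells, as cells primed for 72 hours in IL-15 (100 ng/ml), and as primed cells that were then washed and given plate-bound NKG2D at 20 ug/ml for 6 hours. IL-15 is the survival and activation cytokine of NK cells, and NKG2D (gene Klrk1) is one of their activating receptors. The labels give no ages or sexes, and they do not tie the replicates to separate animals. The p-values below therefore reflect variation among libraries, which may be technical.

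Type I interferons bind the receptor Ifnar1/Ifnar2, whose kinases Jak1 and Tyk2 phosphorylate STAT proteins, Stat2 among them. Stat2 and Irf9 are subunits of the complex ISGF3, which binds the interferon-stimulated response element (ISRE) in target promoters. Interferon-gamma, a main cytokine product of NK cells, signals through Ifngr1/Ifngr2 to the gamma-activated site (GAS) of target promoters and induces Irf1 and the guanylate-binding and immunity-related GTPases. The products sense foreign nucleic acid, block translation, trap virions, tag proteins with ISG15 and, through Usp18, damp the receptor.

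Promoters of the genes were read for the core letters of these 2 elements. Windows of 80 bases upstream of the start are shown for 10 genes that recur below. Only genes with a core match there are shown, so the windows do not stand for the whole set. RefSeq promoters of the GRCm38.p6 build, from 250 bases before to 50 after each annotated start, were held for 28 of the 37 genes. The ISRE core searched was GAAA, then any 2 bases, then GAAA, on both strands. The GAS core was TTCNNNGAA, which reads the same on both strands; the matches can overlap. The ISRE core lay in 15 of 32 promoters of the 28 genes (46.9%), against 3.44% of all 32851 promoters. The GAS core lay in 8 of the 32 (25%), against 8.30% of all promoters. Capitals mark every core match inside a window, and bases run 5′ to 3′ along the gene's strand.
Isg15: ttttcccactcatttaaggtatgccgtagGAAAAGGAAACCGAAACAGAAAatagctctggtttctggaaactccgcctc
Bst2: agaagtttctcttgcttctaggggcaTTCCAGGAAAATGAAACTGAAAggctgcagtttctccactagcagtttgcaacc
Oas1a: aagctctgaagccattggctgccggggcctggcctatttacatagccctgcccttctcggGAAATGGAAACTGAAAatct
Ifit1: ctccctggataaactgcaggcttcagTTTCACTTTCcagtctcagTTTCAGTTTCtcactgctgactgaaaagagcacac
Ifit3: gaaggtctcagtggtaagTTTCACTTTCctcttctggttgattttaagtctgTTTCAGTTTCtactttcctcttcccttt
Gbp2: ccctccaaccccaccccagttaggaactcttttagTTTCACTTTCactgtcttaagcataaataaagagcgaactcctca
Gbp3: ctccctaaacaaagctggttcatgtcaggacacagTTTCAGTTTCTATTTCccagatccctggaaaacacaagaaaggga
Igtp: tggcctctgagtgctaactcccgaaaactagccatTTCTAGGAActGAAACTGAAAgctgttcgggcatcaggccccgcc
Irgm1: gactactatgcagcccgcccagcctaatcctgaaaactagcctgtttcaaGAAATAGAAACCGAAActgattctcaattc
Irf1: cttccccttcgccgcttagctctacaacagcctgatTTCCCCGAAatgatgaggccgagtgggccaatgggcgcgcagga
The windows lie at chr4:156200846-156200925 on the minus strand (Isg15), chr8:71537555-71537634 minus (Bst2), chr5:120907526-120907605 minus (Oas1a), chr19:34640759-34640838 plus (Ifit1) and chr19:34583355-34583434 plus (Ifit3). Those of the GTPases lie at chr3:142620569-142620648 plus (Gbp2), chr3:142559964-142560043 plus (Gbp3), chr11:58199476-58199555 plus (Igtp) and chr11:48871421-48871500 minus (Irgm1), and that of Irf1 at chr11:53769888-53769967 plus. Isg15 holds 3 overlapping ISRE cores, at positions -78, -72 and -66 from its start. Bst2 holds a GAS core at -136 that overlaps an ISRE core at -130, and a further ISRE core at -124. Igtp holds a GAS core at -45 and an ISRE core at -34. Irf1 holds a GAS core at -90 and no ISRE core in this window. Samhd1, Ifi35 and Ifit2 likewise hold a GAS core and no ISRE core in their promoters. A match is a stretch of letters and does not show that a factor bound there.

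Libraries held 14772350 to 34367582 estimated reads. Acly, the deleted gene, was at 250 ± 16.7 CPM (the gene's counts relative to its library's total; mean ± SD, n = 3) in fresh wild-type cells and 18.9 ± 5.66 in fresh knock-out cells, and it was lower in every knock-out group. The 10 NK-cell markers summed to 8991 to 31673 CPM per library. Lists of other cells were far lower except one of myeloid genes (1670 to 2945 CPM), in which Lyz2, S100a8 and S100a9 were at 0 in every primed and NKG2D library. In those groups 4 to 6 of its 11 genes were at 0, so its sum rests on the other genes and may not measure myeloid cells. Haemoglobin and platelet genes summed to 122 to 211 CPM in fresh wild-type libraries and 26.0 to 28.4 in fresh knock-out ones. These are bulk samples, in which fewer cells of a type and less RNA per cell cannot be told apart.

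Libraries of 1 group differed in the level of the whole gene set. In primed knock-out cells replicate 3 lay above its group's mean for 36 of the 36 genes tested, by a median of 0.43 on the log2 scale, and replicate 1 above it for 0 of 36, with a median of -0.37. The same medians over all 14864 genes tested were 0.04 and -0.08. This replicate 1 also held the fewest reads of the 18 libraries, 14772350. It had 14695 genes with a count above 0, against 17877 in the next lowest library. The part of depth in its deviations was not tested. In wild-type cells primed replicate 1 lay above its group's mean for 35 of 36 genes, and NKG2D replicate 1 for 33 of 36. Counts and medians between genotypes are given below also without these libraries where that changed a call or turned a median.

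**Figure D1:**
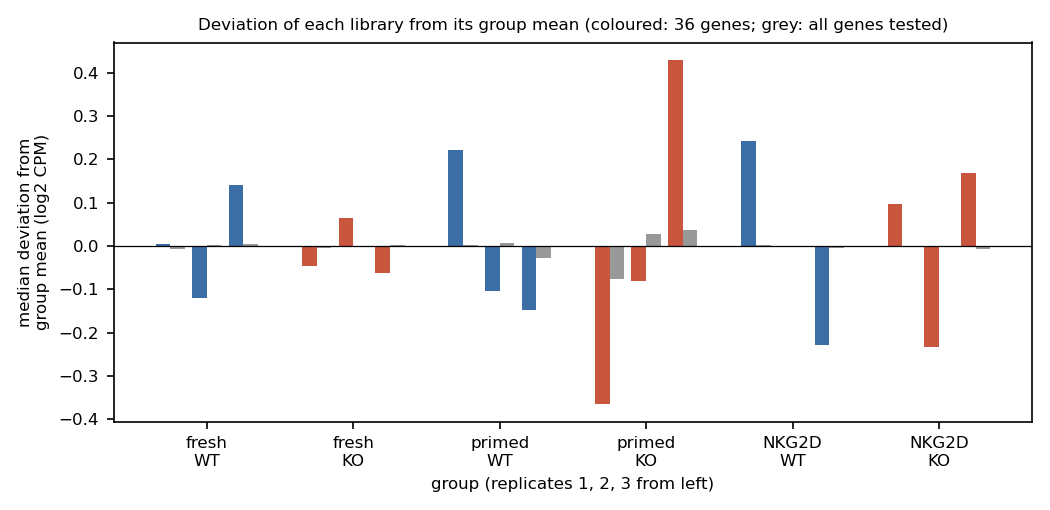
Median deviation of each library from its group mean, in log2(CPM + 1), over the 36 interferon-stimulated genes tested (blue wild type, red knock-out) and over all genes tested (grey). The 3 primed knock-out libraries run from -0.37 to 0.43 for these genes, while grey bars stay between -0.08 and 0.04.

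The genes together summed to 1652 ± 117 CPM in fresh wild-type cells, 5783 ± 835 in primed and 2875 ± 401 after NKG2D. The knock-out sums were 1948 ± 59.6, 5295 ± 1668 and 2399 ± 245 CPM. Of the 36 genes tested, 31 in wild type and 30 in knock-out had their highest group mean in primed cells. Per kilobase of exon, the order of levels changed with condition. In fresh wild-type cells Ifi47, an interferon-gamma-induced GTPase, was highest at 77.4 CPM per kilobase, followed by Ifi35 at 62.0 and Irf1 at 41.9. In primed wild-type cells Ifi27l2a, a small membrane protein of the interferon response, was highest at 808 CPM per kilobase, followed by Isg15 at 269 and Bst2 at 216. In primed knock-out cells Ifi47 was highest at 225 CPM per kilobase, above Ifi27l2a at 199. Oas2, a member of the oligoadenylate synthetase family, stayed at or under 0.614 CPM in every library and was not tested.

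**Figure D2:**
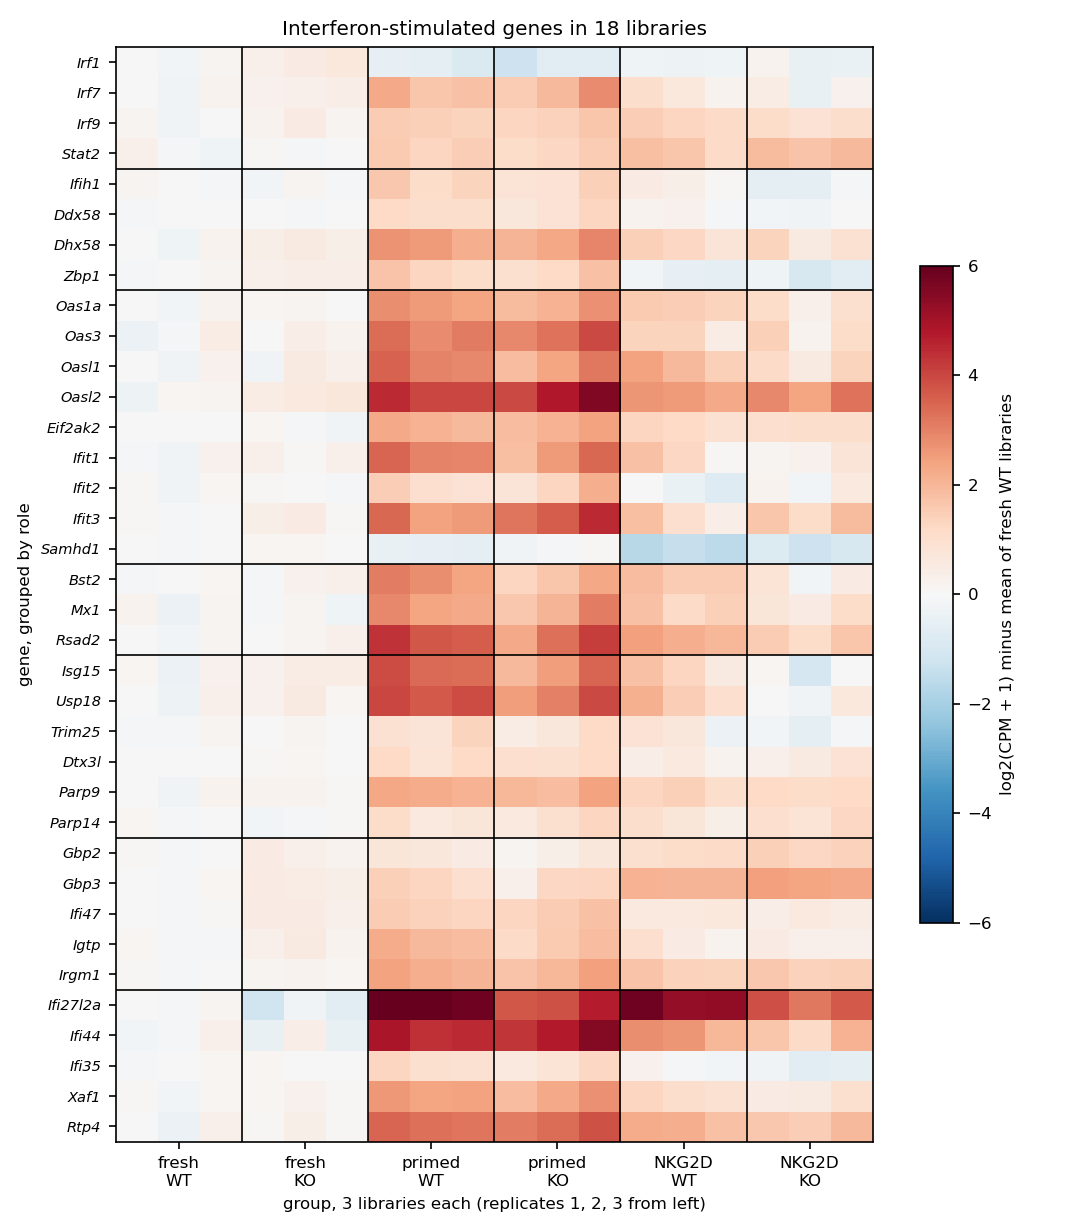
Level of the 36 tested genes in all 18 libraries, as log2(CPM + 1) minus the mean of the fresh wild-type libraries; columns are libraries, rows are genes and lines separate groups and roles. Most rows are red in primed cells and paler after NKG2D, and Irf1 and Samhd1 are blue or near white in primed cells.

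Nearly the whole set rose on priming in both genotypes. In wild type 34 of 36 genes rose and 2 (Irf1, Samhd1) fell, where 53.7% of all genes tested passed, 26.5% higher and 27.2% lower. The median log2 fold change of the set was 2.19, against -0.06 over all genes. In knock-out cells 33 rose and 1 (Irf1) fell, where 48.7% of all genes passed, 23% higher and 25.7% lower, and the medians were 1.93 and -0.06. The labels describe no cells cultured without IL-15, so culture and IL-15 cannot be told apart.

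Among the genes of interferon signalling, Irf7, the factor that amplifies type I interferon production, was at 106, 93.1 and 122 CPM in the fresh wild-type libraries and 522, 335 and 367 in the primed ones. It rose by 1.93 ± 0.30 (log2, SE) in wild type and 1.92 ± 0.30 in knock-out, and the groups do not overlap in either genotype. Of the ISGF3 subunits, Irf9 rose by 1.45 ± 0.14 and 1.16 ± 0.14, and Stat2 went from 15.7, 12.1 and 10.4 CPM to 39.8, 32.1 and 36.3 in wild type and rose by 1.37 ± 0.18 in knock-out. Irf1, the interferon-gamma-induced transcription factor with the GAS core shown above, went the other way. Its libraries were at 167, 148 and 185 CPM in fresh wild type, 119, 111 and 90.1 in primed wild type, 202, 236 and 256 in fresh knock-out and 68.8, 104 and 108 in primed knock-out. All primed libraries lay below the fresh ones of their genotype. Irf1 fell by 0.65 ± 0.18 in wild type (edgeR adjusted p = 0.00656) and by 1.30 ± 0.18 in knock-out (edgeR adjusted p = 1.68e-05).

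All 4 nucleic-acid sensors rose in both genotypes. Dhx58 (LGP2), a regulator of RIG-I-like sensing, rose by 2.56 ± 0.26 in wild type and 2.11 ± 0.25 in knock-out. The RNA sensors Ifih1 (MDA5) and Ddx58 (RIG-I) and the Z-nucleic-acid sensor Zbp1 rose by 1.41 ± 0.19, 1.12 ± 0.13 and 1.39 ± 0.21 in wild type. In knock-out cells these 3 rose by 1.14 ± 0.19, 0.99 ± 0.13 and 0.97 ± 0.21.

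Among the RNA-acting effectors, 8 of 9 tested rose in each genotype, with a median of 3.00 in wild type and 2.45 in knock-out. Eif2ak2 (PKR), the kinase that halts translation on double-stranded RNA, was at 20.9, 21.6 and 20.7 CPM in fresh wild type and 104, 94.1 and 83.2 when primed, an even rise of 2.16 ± 0.15 (edgeR adjusted p = 1.52e-09). In knock-out it rose by 2.26 ± 0.15 (edgeR adjusted p = 8.44e-10). Oasl2, an oligoadenylate-synthetase-like protein, went from 2.90, 4.32 and 4.50 CPM to 108, 76.2 and 77.8 in wild type. In knock-out it went from 5.58, 6.35 and 6.70 to 74.0, 135 and 229, a wide primed range. It rose by 4.49 ± 0.36 and 4.55 ± 0.35. Ifit1 and Ifit3, which bind viral RNA ends and carry paired ISRE cores in the windows above, rose by 3.23 ± 0.41 and 3.00 ± 0.38 in wild type and 2.63 ± 0.40 and 3.64 ± 0.39 in knock-out. Reads of Ifit and Oas family members may be shared between near-identical copies, and these values are uncertain to that extent. Samhd1, which depletes deoxynucleotides, was the exception: 207, 199 and 210 CPM in fresh wild type and 148, 146 and 137 when primed. It fell by 0.51 ± 0.11 in wild type (edgeR adjusted p = 0.000665), and its knock-out value was -0.18 ± 0.11 (edgeR adjusted p = 0.184).

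The restriction factors Rsad2, Mx1 and Bst2 also rose. Rsad2 (viperin), which makes a chain-terminating nucleotide, rose by 4.37 ± 0.38 in wild type and 3.63 ± 0.37 in knock-out. Mx1, an antiviral dynamin-like GTPase, rose by 2.73 ± 0.34 and 2.69 ± 0.34. Bst2 (tetherin), which holds budding virions at the cell surface, was at 25.7, 27.3 and 30.4 CPM in fresh wild type and 239, 200 and 146 when primed. In knock-out it was at 26.6, 33.7 and 34.4 fresh and 69.0, 90.4 and 142 primed. Fresh levels overlapped between genotypes, and every primed knock-out library lay below every primed wild-type one. Bst2 rose by 2.81 ± 0.27 and 1.67 ± 0.26.

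In the ISG15 and ADP-ribosylation group all 6 genes rose in both genotypes. Usp18, the ISG15 protease and receptor inhibitor, rose by 3.90 ± 0.36 in wild type and 3.03 ± 0.34 in knock-out, and Isg15, the ubiquitin-like modifier, by 3.63 ± 0.40 and 2.44 ± 0.38. Parp9, which pairs with the ubiquitin ligase Dtx3l, was among the genes of smallest p in wild type and went from 34.0, 28.5 and 38.1 to 169, 158 and 142 CPM. It rose by 2.22 ± 0.15 (edgeR adjusted p = 1.3e-09) and 1.98 ± 0.15 (edgeR adjusted p = 5.42e-09). The Parp9 and Dtx3l loci overlap on opposite strands, and the sources used here do not say whether counting used strand. Trim25, the ligase of RIG-I, rose least of this group in knock-out, by 0.78 ± 0.26.

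All 5 interferon-gamma-type GTPases rose in wild type, and 4 of 5 did in knock-out. Irgm1, Igtp (Irgm3) and Ifi47, GTPases that act on pathogen vacuoles, rose by 2.23 ± 0.16, 2.02 ± 0.19 and 1.42 ± 0.11 in wild type and by 1.95 ± 0.16, 1.18 ± 0.19 and 1.09 ± 0.11 in knock-out. Gbp2, a guanylate-binding protein, rose by 0.63 ± 0.12 in wild type, and its knock-out value was 0.09 ± 0.12 (edgeR adjusted p = 0.582), with overlapping libraries at 77.6, 68.5 and 63.6 CPM fresh and 62.0, 70.5 and 90.2 primed. Gbp3 rose by 1.28 ± 0.18 and 0.60 ± 0.18.

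The remaining genes held the largest rise. Ifi27l2a was at 4.10, 3.85 and 4.82 CPM in fresh wild type and 484, 342 and 296 when primed. In knock-out it was at 1.31, 3.60 and 2.29 fresh and 68.2, 72.9 and 135 primed. It rose by 6.46 ± 0.36 (edgeR adjusted p = 1.48e-10) and 5.27 ± 0.36 (edgeR adjusted p = 1.66e-09). Ifi44 rose by 5.09 ± 0.42 and 5.63 ± 0.43. Rtp4, a receptor-transporter protein, rose evenly in both genotypes, by 3.38 ± 0.21 (edgeR adjusted p = 5.23e-10) and 3.30 ± 0.21 (edgeR adjusted p = 6.44e-10). Of the priming calls, 36 of 36 in wild type held under all 13 alternatives, and 32 of 34 in knock-out. Trim25 lost its knock-out call without fresh knock-out replicate 3 or primed knock-out replicate 3 (edgeR adjusted p up to 0.0969), and Gbp3 without primed knock-out replicate 2 (0.0603).

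**Figure D3:**
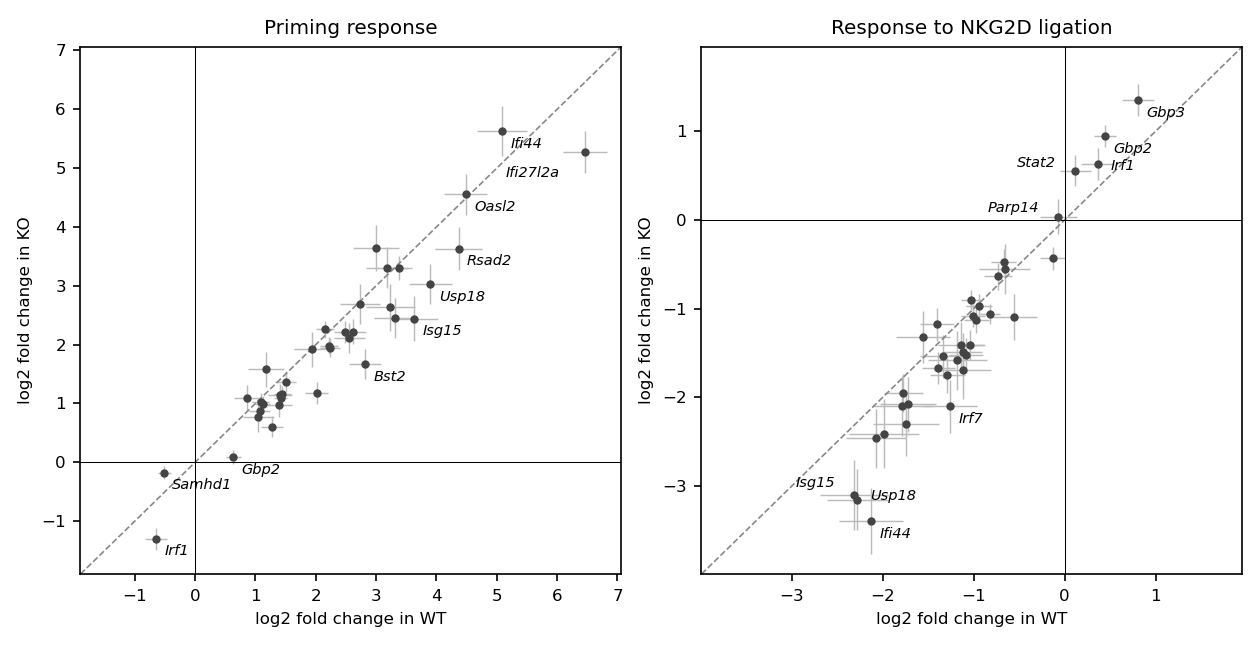
Log2 fold change of each of the 36 genes in wild type (horizontal) and knock-out (vertical) for priming (left) and for NKG2D after priming (right), with standard errors; the dashed line marks equal values. In priming most genes lie between 0 and 6.46 in wild type with Irf1 and Samhd1 below 0, and in the NKG2D response most lie below 0 with Gbp2 and Gbp3 above it in both genotypes.

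After NKG2D most of the set fell again. In wild type 28 of 36 genes fell and 2 rose against primed cells, where 19.9% of all genes passed, 10.7% lower and 9.2% higher. The median was -1.12, against -0.01 over all genes. In knock-out 30 fell and 4 rose, where 35.3% of all genes passed, 16.9% lower and 18.4% higher, with medians of -1.41 and 0.04. The stimulated cells were also washed and kept for a further 6 hours, and the labels do not say whether the primed cells were too. B-cell markers summed to 84.9 to 111 CPM in primed libraries and 437 to 627 after NKG2D, with Ms4a1 at 0 in all of them, and NK-cell markers to 17497 to 24593 and 8991 to 13720; their part in the falls was not tested. In wild type 30 of 36 NKG2D means lay between the fresh and the primed mean, 3 below both (Zbp1, Ifit2, Samhd1) and 3 above both (Stat2, Gbp2, Gbp3). In knock-out 23 lay between, 9 below both (Irf7, Ifih1, Ddx58, Zbp1, Samhd1, Isg15, Usp18, Trim25, Ifi35) and 4 above both (Stat2, Parp14, Gbp2, Gbp3).

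The signalling genes moved in different ways. Irf7 fell by 1.26 ± 0.29 in wild type and 2.10 ± 0.30 in knock-out. Stat2 did not fall: its libraries were at 39.8, 32.1 and 36.3 CPM in primed wild type and 45.9, 41.9 and 29.5 after NKG2D, which overlap. In knock-out they were at 28.5, 31.2 and 38.0 primed and 48.9, 43.6 and 50.9 after NKG2D, a rise of 0.55 ± 0.17 (edgeR adjusted p = 0.0196). Irf1 also rose in knock-out, by 0.63 ± 0.18 (edgeR adjusted p = 0.0122), and its wild-type value was 0.36 ± 0.18 (edgeR adjusted p = 0.179). Irf9 fell in knock-out by 0.43 ± 0.13, with a wild-type value of -0.13 ± 0.13.

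All 4 sensors and all 9 RNA-acting effectors tested fell in both genotypes. Zbp1 was at 204, 152 and 132 CPM in primed wild type and 55.8, 44.3 and 42.7 after NKG2D. It fell by 1.77 ± 0.21 (edgeR adjusted p = 1.22e-05) and, in knock-out, by 1.95 ± 0.21 (edgeR adjusted p = 1.95e-06). Ddx58 fell by 1.00 ± 0.13 (edgeR adjusted p = 2.8e-05) and 1.08 ± 0.13 (edgeR adjusted p = 5.9e-06). Samhd1, which had not risen on priming, fell further, from 148, 146 and 137 to 63.9, 78.7 and 69.1 CPM in wild type. It fell by 1.03 ± 0.11 (edgeR adjusted p = 3.88e-06), the smallest p of the set in wild type, and by 0.90 ± 0.11 in knock-out. Oas3 fell by 2.08 ± 0.33 and 2.46 ± 0.34, and Ifit1 by 1.99 ± 0.38 and 2.41 ± 0.39.

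Bst2, Mx1 and Rsad2 fell in both genotypes, Rsad2 by 1.79 ± 0.33 and 2.10 ± 0.34. Usp18 fell from 516, 406 and 477 to 138, 87.2 and 63.2 CPM in wild type and from 182, 260 and 501 to 31.2, 26.8 and 47.7 in knock-out. The knock-out libraries after NKG2D overlapped the fresh knock-out range of 33.5 to 44.8 CPM. Usp18 fell by 2.28 ± 0.33 and 3.16 ± 0.35 (edgeR adjusted p = 2.06e-06 in knock-out). Isg15 fell by 2.31 ± 0.37 and 3.10 ± 0.39. Parp14 and Trim25 did not pass in wild type (-0.07 ± 0.20 and -0.56 ± 0.26), and Parp14 did not in knock-out (0.04 ± 0.20).

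Among the 5 interferon-gamma-type GTPases, Gbp2 and Gbp3 rose in both genotypes. Gbp3 went from 93.3, 83.2 and 70.2 to 149, 140 and 143 CPM in wild type and from 42.7, 81.8 and 83.7 to 189, 178 and 165 in knock-out. It rose by 0.81 ± 0.18 (edgeR adjusted p = 0.00348) and 1.35 ± 0.18 (edgeR adjusted p = 1.81e-05). Gbp2 rose by 0.45 ± 0.12 (edgeR adjusted p = 0.0165) and 0.94 ± 0.12 (edgeR adjusted p = 1.59e-05). The other 3 fell: Ifi47 by 0.82 ± 0.11 and 1.06 ± 0.11 (edgeR adjusted p = 1.23e-06 in knock-out), Igtp by 1.40 ± 0.19 and 1.18 ± 0.19, and Irgm1 by 0.74 ± 0.16 and 0.64 ± 0.16. All 4 whose windows are shown above (Gbp2, Gbp3, Igtp, Irgm1) hold an ISRE core, so the core is found both in genes that rose and in genes that fell. Guanylate-binding protein genes lie in a cluster of close copies, whose reads may be shared.

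Among the remaining genes, Ifi44 fell by 2.13 ± 0.35 in wild type and 3.39 ± 0.37 in knock-out (edgeR adjusted p = 2.07e-06), and Xaf1, a pro-apoptotic factor, by 1.39 ± 0.18 (edgeR adjusted p = 3.19e-05) and 1.67 ± 0.18. Ifi27l2a had the highest level per kilobase of the set after NKG2D in both genotypes and did not pass the test, at -0.66 ± 0.28 (edgeR adjusted p = 0.112) and -0.56 ± 0.28 (0.137). Leaving out 1 library ended 3 calls in wild type, those of Oasl1 and Mx1 (primed replicate 1 or NKG2D replicate 2 or 3) and Gbp2 (primed replicate 3 or NKG2D replicate 2 or 3), with edgeR adjusted p up to 0.0868. In knock-out it ended 4: Irf1 (replicate 1 of either condition), Irf9 (primed 3 or NKG2D 2), Stat2 (primed 1 or 2 or NKG2D 3) and Dtx3l (primed 3 or NKG2D 1 or 2), with edgeR adjusted p up to 0.109. The calls of Irf1 and Dtx3l in knock-out were also lost with limma voom and with the compared libraries alone.

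The genotypes were compared within each condition to ask whether loss of Acly changed the level of these genes. In fresh cells 0 of 36 genes passed (edgeR), where 0.0673% of all genes did. At an unadjusted p under 0.05 there were 6. The share of all genes at that unadjusted threshold was not computed, so this count has nothing to be set against. DESeq2 called 1, with 0.92% of all genes called, and limma voom 5, with 12.8% called. The median was 0.18, against 0.01 over all genes, and 27 of 36 values were above 0, against 51.6% of all genes. In 13 of 36 genes every knock-out library lay above every wild-type one, against 14.1% of all genes. The 13 included all 5 interferon-gamma-type GTPases. Ifi47 was at 188, 184 and 202 CPM in wild type and 271, 273 and 239 in knock-out, a value of 0.45 ± 0.11 (edgeR adjusted p = 0.205). Irf1 was at 0.47 ± 0.18 (edgeR adjusted p = 0.28). The haemoglobin and platelet sums given above also differed between these groups, as did those of B-cell markers (244 to 248 CPM in wild type, 291 to 334 in knock-out) and myeloid markers (2371 to 2478 and 2697 to 2945), and their part in the values was not tested. In the authors' deposited table for fresh cells 7 of 36 genes were called higher in knock-out (Irf1, Irf9, Zbp1, Gbp2, Gbp3, Ifi47, Igtp) and 0 lower, with 14.3% of that table's genes called.

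In primed cells 3 of 36 genes differed between genotypes, 1 higher and 2 lower in knock-out, where 15.5% of all genes passed, 7% higher and 8.52% lower. The median was -0.14, against -0.02 over all genes. Samhd1 was higher, at 174, 190 and 213 CPM in knock-out against 148, 146 and 137 in wild type, by 0.42 ± 0.11 (edgeR adjusted p = 0.0137). Ifi27l2a was lower (-2.02 ± 0.29, edgeR adjusted p = 0.000179), at 68.2 to 135 CPM against 296 to 484. Bst2 was lower (-0.96 ± 0.25, edgeR adjusted p = 0.0157). None of these 3 genes' libraries overlapped between genotypes. Isg15 and Usp18 did overlap, Isg15 at 64.8, 95.9 and 190 CPM in knock-out against 256, 180 and 174, and their values were -0.80 ± 0.36 and -0.57 ± 0.32. Ifit3 was at 113, 149 and 266 CPM in knock-out against 133, 64.2 and 70.3, a value of 0.98 ± 0.35 (edgeR adjusted p = 0.0706).

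The primed calls other than Ifi27l2a depended on single libraries. Without primed knock-out replicate 3, the library above its group mean in every gene, 8 genes were called, all lower. Of all genes 14.9% were called there. The median was -0.33, and Samhd1 was not called (edgeR adjusted p = 0.0604). Without knock-out replicate 1, the library with the fewest reads, 4 genes were called, 3 higher and 1 lower. Of all genes 12.5% were called there, and the median of the set turned to 0.03. Without wild-type replicate 1, 3 genes were called, 2 higher and 1 lower, with 9.75% of all genes called and a median of -0.01. Bst2 lost its call without wild-type replicate 1 or 2 or knock-out replicate 1 or 2 (edgeR adjusted p up to 0.0873), and with the compared libraries alone. Conventional dendritic-cell markers summed to 26.5 to 30.2 CPM in primed wild type and 6.97 to 11.0 in primed knock-out, with 3 and 2 of the 9 markers at 0 (Clec9a and Cd209a in both). Plasmacytoid dendritic-cell markers summed to 90.1 to 102 and 76.6 to 87.1 CPM, with 3 and 2 of 8 at 0 (Siglech and Klk1 in both), and T-cell markers to 86.5 to 123 and 61.5 to 86.1. The part of these cells in the differences was not tested. In the authors' deposited table for primed cells 3 genes were higher and 5 lower, with 31.2% of that table called.

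**Figure D4:**
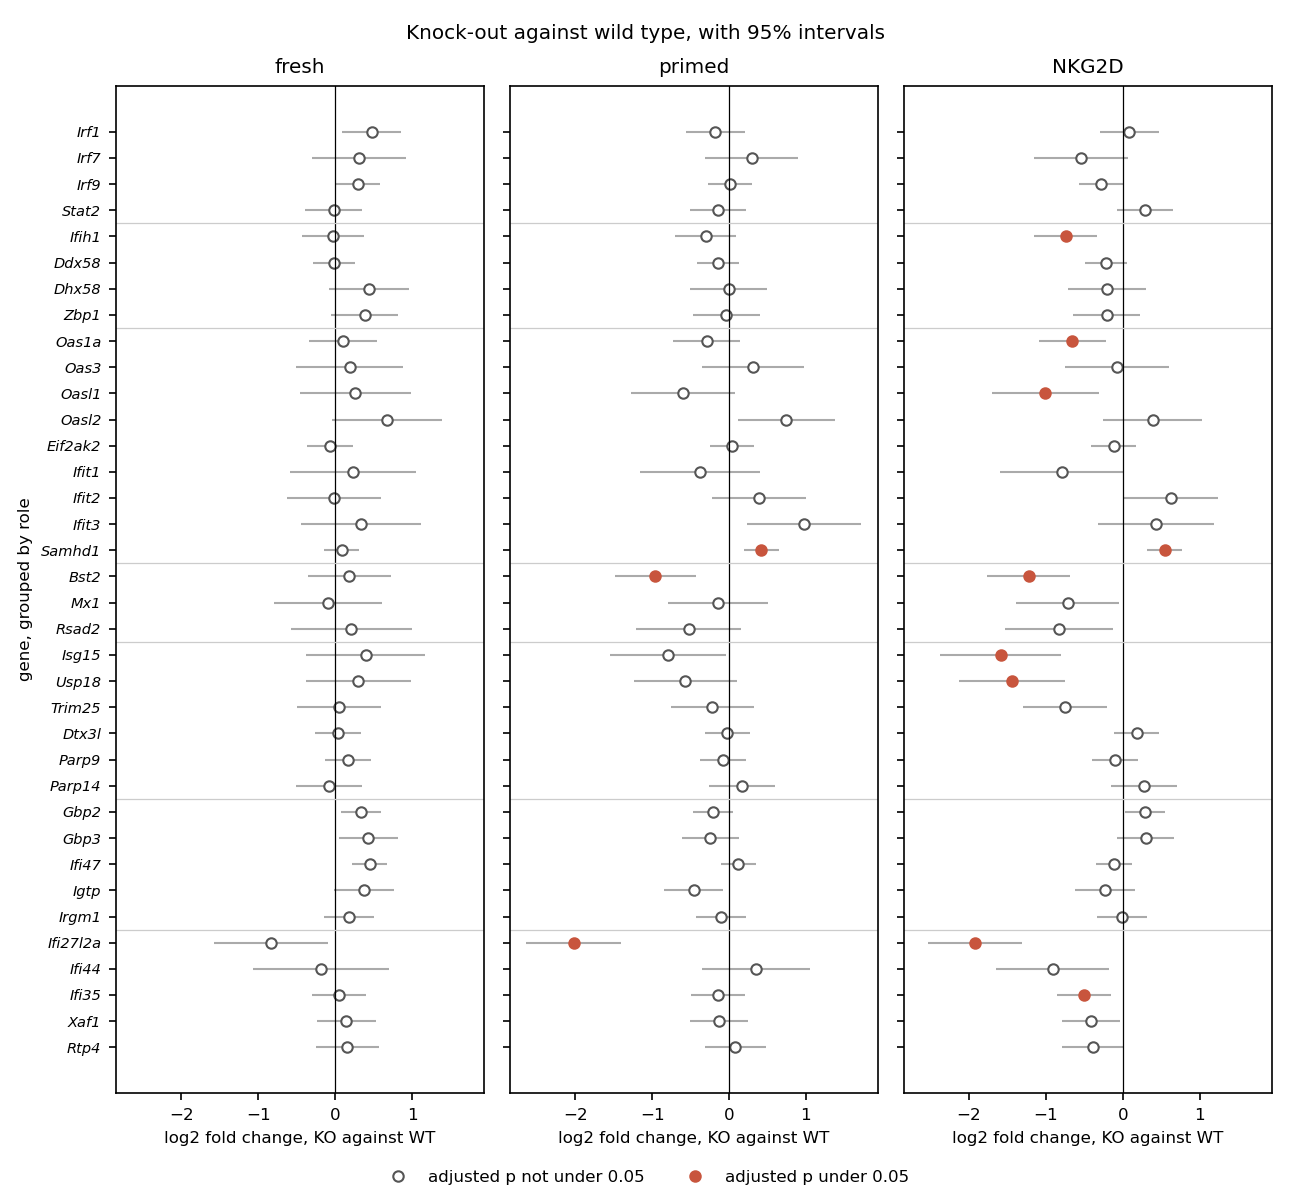
Log2 fold change of knock-out against wild type for each of the 36 genes in each condition (fresh, primed, NKG2D), with 95% intervals; filled points passed at an adjusted p of 0.05. Filled points number 0 in the left panel, 3 in the middle and 9 on the right, and those of Ifi27l2a lie at -2.02 and -1.92.

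After NKG2D 9 of 36 genes differed, 1 higher and 8 lower in knock-out, where 18.2% of all genes passed, 8.75% higher and 9.47% lower. The median was -0.23, against 0.03 over all genes. In 11 of 36 genes every knock-out library lay below every wild-type one, against 17.1% of all genes. Ifi27l2a was at 75.4, 45.8 and 66.5 CPM in knock-out against 294, 205 and 211 in wild type (-1.92 ± 0.29, edgeR adjusted p = 0.000246). Isg15 was at 17.3, 7.63 and 15.9 against 57.5, 41.2 and 23.8 (-1.59 ± 0.37, edgeR adjusted p = 0.00691). Both genes had every knock-out library below every wild-type library. Usp18 was at 31.2, 26.8 and 47.7 against 138, 87.2 and 63.2 (-1.45 ± 0.33, edgeR adjusted p = 0.00524), and Bst2 at 49.5, 24.8 and 39.4 against 103, 82.3 and 81.2 (-1.23 ± 0.25, edgeR adjusted p = 0.00292). These 2 did not overlap either. Samhd1 was again higher in knock-out, at 115, 86.7 and 106 against 63.9, 78.7 and 69.1 CPM (0.54 ± 0.11, edgeR adjusted p = 0.00226).

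The other 4 lower genes were the sensor Ifih1 (-0.74), the synthetase Oas1a (-0.66), the translation regulator Oasl1 (-1.01) and Ifi35 (-0.51), with edgeR adjusted p between 0.0126 and 0.0426. Each of these 4 calls was lost when a single library was left out: Ifih1 was lost without wild-type replicate 1, Oas1a without any wild-type library or knock-out replicate 2 or 3, Oasl1 without wild-type replicate 1 or 2 or any knock-out library, and Ifi35 without replicate 1 or 2 of wild type or 2 or 3 of knock-out. With the replicate block Oasl1 and Ifi35 were not called, and with the compared libraries alone Oas1a and Ifi35 were not. Without wild-type replicate 1, above its group mean for 33 of 36 genes, 5 genes were called, 1 higher and 4 lower. Of all genes 13% were called there. The GTPases, Stat2, Irf1 and the ADP-ribosylation genes Parp9, Parp14 and Dtx3l did not pass, and Gbp3 was at 0.30 ± 0.18. NK-cell markers summed to 11929 to 13720 CPM in wild type and 8991 to 10548 in knock-out. Plasmacytoid dendritic-cell markers summed to 86.4 to 102 CPM in wild type and 118 to 123 in knock-out, T-cell markers to 68.0 to 95.6 and 47.1 to 52.9, conventional dendritic-cell markers to at most 28.1 and 12.8 to 15.8, without overlap, and myeloid markers to 1869 to 2171 and 1670 to 1742. Whether these sums track numbers of cells, and their part in the values, was not tested. The authors' deposited table for these cells called 6 genes of the set higher and 14 lower, with 45.5% of its genes called.

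**Figure D5:**
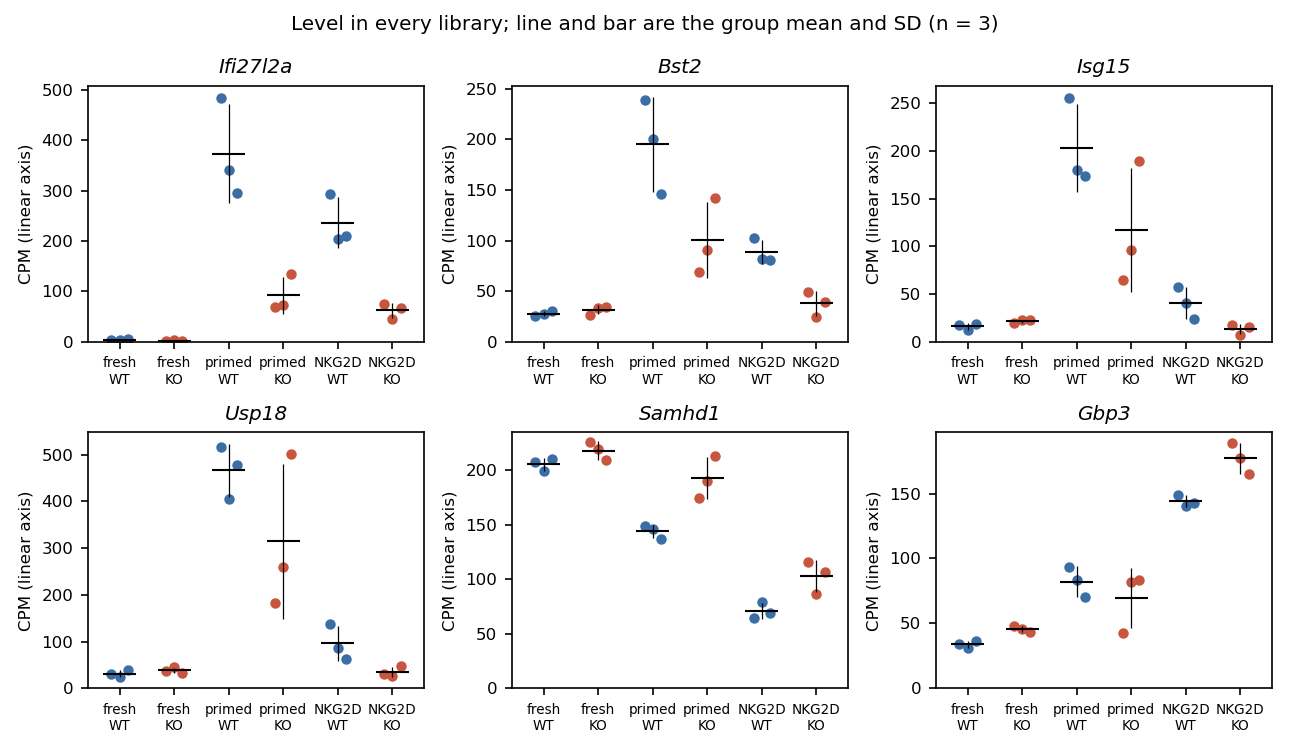
CPM of Ifi27l2a, Bst2, Isg15, Usp18, Samhd1 and Gbp3 in every library (blue wild type, red knock-out; n = 3 a group), with the mean and SD; axes start at 0. Ifi27l2a, Bst2, Isg15 and Usp18 peak in primed cells and are lower in knock-out after NKG2D, Samhd1 is higher in primed and NKG2D knock-out cells, and Gbp3 is highest after NKG2D in both genotypes.

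Whether priming or NKG2D acted differently in the genotypes was tested as a difference of responses. For priming 1 of 36 genes passed, where 10.5% of all genes did: the rise of Bst2 was smaller in knock-out (-1.14 ± 0.36, edgeR adjusted p = 0.0495). That call was lost without any of 10 of the 12 libraries compared, with edgeR adjusted p up to 0.146, and with RLE factors or the replicate block. The median difference was -0.27, against -0.01 over all genes, and was -0.50 to -0.11 with 1 library left out. Of the 36 genes 28 were below 0, where 49.6% of all genes were above 0. Primed knock-out libraries shifted over the whole set, so these genes are not independent of each other. Igtp (-0.83 ± 0.26, edgeR adjusted p = 0.0504) and Gbp2 (-0.55 ± 0.18, 0.0553) lay just outside the threshold. For Ifi27l2a, whose primed level differed, the difference of the rises was -1.19 ± 0.45 (edgeR adjusted p = 0.102). For NKG2D 0 of 36 passed in edgeR, where 3.55% of all genes did. At an unadjusted p under 0.05 there were 3, again without a share of all genes at that threshold. DESeq2 called 0 and limma voom 2, where they called 6.84% and 14.2% of all genes. The median difference was -0.27, against 0.05, and turned to 0.09 without primed knock-out replicate 3. For Isg15 the difference was -0.79, with a 95% interval from -1.87 to 0.29.

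Other genes of the pathway were read from lists. Of 21 interferon genes 3 were tested. Ifng, interferon-gamma, was at 493, 542 and 645 CPM in fresh wild type, 87.1, 83.3 and 63.1 when primed and 88.2, 65.9 and 81.3 after NKG2D. In knock-out it was at 558, 621 and 576, then 72.5, 67.1 and 70.8, then 20.6, 20.1 and 15.5. The genotypes overlapped in fresh and primed cells. After NKG2D the knock-out was lower (-2.06 ± 0.15, edgeR adjusted p = 3.48e-07), and the difference of the NKG2D responses was -1.92 ± 0.20 (edgeR adjusted p = 0.000392). Type I interferon transcripts were near the limit of counting. Ifna2 reached 1.65 CPM in primed wild type and Ifna4 0.962 CPM in primed knock-out, the highest of their libraries. Both were called higher on priming in wild type (7.49 ± 2.24 and 6.19 ± 1.91, edgeR adjusted p = 0.0124 and 0.0145). In knock-out Ifna4 was called higher on priming (6.71 ± 1.82, edgeR adjusted p = 0.00792) and lower after NKG2D (-4.06 ± 1.39, edgeR adjusted p = 0.0366), and Ifna2 was not called. At such low counts these fold changes are imprecise. Ifnb1, interferon-beta, was at 0.327 to 1.84 CPM in primed wild type and 0 to 0.144 in primed knock-out and was not tested.

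The receptors did not rise with their targets. Ifngr1 fell on priming by 0.96 ± 0.11 in wild type and 1.40 ± 0.11 in knock-out and was lower in primed knock-out cells (-0.43 ± 0.11, edgeR adjusted p = 0.0141). Ifnar1 fell by 0.70 ± 0.23 on priming in wild type and rose by 0.96 ± 0.23 after NKG2D. Of 11 further JAK, STAT and IRF genes, 3 rose and 7 fell on priming in wild type, and 2 rose and 5 fell in knock-out, where 53.7% and 48.7% of all genes passed. Jak1 fell on priming by 2.20 ± 0.27 and 1.54 ± 0.27. The interferon regulatory factors Irf5 and Irf4 were lower in primed knock-out cells (-1.62 ± 0.24 and -1.34 ± 0.43).

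Of 7 inhibitors, Socs3, a cytokine-signalling suppressor, fell on priming by 5.57 ± 0.37 in wild type and 3.68 ± 0.34 in knock-out. Cish, a target of IL-15 signalling, rose by 2.76 ± 0.38 and 1.83 ± 0.37. After NKG2D Socs1 fell by 1.95 ± 0.37 and 2.04 ± 0.39, and Cish was lower in knock-out than in wild type (-2.77 ± 0.40, edgeR adjusted p = 0.000155). Of 11 genes tested that lie upstream of interferon, 5 rose and 2 fell on priming in wild type, and 3 rose and 2 fell in knock-out. These are 63.6% and 45.5% of the list, near the 53.7% and 48.7% of all genes. Cgas, the cytosolic DNA sensor, rose by 1.29 ± 0.15 in wild type and 2.20 ± 0.16 in knock-out, and was higher in primed knock-out than primed wild-type cells by 0.78 ± 0.15.

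A list of 74 further type I interferon-response genes had 73 tested. On priming 52 rose and 6 fell in wild type (median 1.30) and 47 rose and 5 fell in knock-out (median 1.10). Over all genes 26.5% rose and 27.2% fell in wild type, and 23% and 25.7% in knock-out. After NKG2D 36 fell and 0 rose in wild type, and 38 fell and 5 rose in knock-out. Over all genes 10.7% fell and 9.2% rose in wild type, and 16.9% and 18.4% in knock-out. Ifitm1 and Ifitm2, which block viral entry at membranes, rose most clearly on priming, by 8.93 ± 0.41 and 7.33 ± 0.36 in wild type. Ifitm2 was at 318, 234 and 229 CPM in primed wild type and 61.4, 52.0 and 70.9 in primed knock-out (-2.08 ± 0.27, edgeR adjusted p = 6.54e-05). Between genotypes 3 of 73 were higher and 11 lower in primed knock-out cells, among them Aim2, a cytosolic DNA sensor (-1.40 ± 0.17), and 6 were higher and 10 lower after NKG2D. These are 19.2% and 21.9% of the list, where 15.5% and 18.2% of all genes passed. Of 14 further interferon-gamma-type genes tested, 11 rose and 0 fell on priming in wild type and 10 rose and 1 fell in knock-out. These are 78.6% of that list in each genotype, where 53.7% and 48.7% of all genes passed. After NKG2D 8 fell and 1 rose in wild type, and 9 fell and 2 rose in knock-out. These are 64.3% and 78.6% of that list, where 19.9% and 35.3% of all genes passed. Gbp5 was among those that rose, by 0.68 ± 0.20 in each genotype. Gbp4 was among those that fell, by 1.54 ± 0.15 in wild type (edgeR adjusted p = 1.01e-06) and 1.66 ± 0.15 in knock-out (edgeR adjusted p = 1.67e-07). Between genotypes after NKG2D 1 of the 14 was higher in knock-out and 3 were lower. This is 28.6% of that list, where 18.2% of all genes passed. Gbp7 was higher (0.30 ± 0.10, edgeR adjusted p = 0.0423), and Gbp6 and Gbp10 were lower in knock-out after NKG2D (-1.46 ± 0.28 and -2.31 ± 0.45).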

How the data were processed

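The authors deposited expected counts (estimated reads per gene, not scaled between libraries) for 18 libraries. The submitters' processing notes name mm10, edgeR, DRAGEN and bcl2fastq; the sources used here give neither versions nor annotation. Libraries were made with a SMARTer kit, per the labels' protocols, without stated molecular barcodes, so duplicate copies were counted. The table held 55774 entries for 55487 identifiers; repeats of 168 identifiers were dropped. The authors' deposited comparison tables give log2 fold changes and adjusted p-values, and were used only where named; 54 per-sample columns in those tables were not used.

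Counts were rounded and tested with edgeR 4.0.16 in R 4.3.3 (quasi-likelihood, TMM factors, 1 mean per group over all 18 libraries, 12 residual degrees of freedom) on the 14864 genes kept by the expression filter. Within each comparison the Benjamini-Hochberg adjustment ran over all of them, at a threshold of 0.05. CPM use TMM-scaled library sizes. Errors after log2 fold changes are standard errors and intervals are 95%. Symbols came from the deposited table, exon lengths from the GENCODE M21 annotation of mm10, and promoters from RefSeq.

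The genes, the pathway and marker lists and the tests were chosen with earlier results of these data known. Full statistics were given to at most 4 higher and 4 lower genes of smallest p in a comparison and to at most 2 and 2 per longer pathway list; values of other genes of the set describe their level or spread, and those picked as examples, with Ifnb1, were picked after their values were seen. Alternatives were DESeq2 1.42.0, limma 3.58.1 voom with quality weights, RLE factors, no filter, a stricter filter (50 counts), the compared libraries alone, replicate blocks, and leaving out each library. Between fresh and primed knock-out cells the 3 same-number pairs of libraries had deviations correlated above 0.1 (0.155, 0.150 and 0.124). No other comparison had this in all of its pairs. Of 36 pairs with the same genotype and different numbers, 10 were also above 0.1, up to 0.385. The labels do not tie numbers to animals, so these correlations cannot show that the numbers pair libraries. Some genes of the lists are counted but not reported here by name.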

Additional observations from a re-analysis of the deposited data

Results flagged for a closer look

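In 11 cases reported here the response of a gene differed between the genotypes past the adjusted threshold (knock-out minus wild type, log2). One belongs to the gene set: the priming response of Bst2 differed by -1.14. The others are genes around it. For priming the difference was -1.59 for Irf5, -0.88 for Sting1 (the adaptor of cytosolic DNA sensing), 0.91 for Cgas, 1.89 for Socs3, -1.48 for Aim2 and -0.85 for Slfn2. For NKG2D it was -1.92 for Ifng, 1.20 for Ticam1 (an adaptor of Toll-like receptors), -0.94 for Ifi27 and 0.63 for Slfn2, whose 2 differences thus had opposite signs.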

How the results depend on the processing

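Over the 9 comparisons 129 alternative counts were made, of which 98 stayed within 1.5 times the count reported, and none of the 147 calls of single genes changed direction; 131 held under every alternative run. The 4 response counts all stayed within that bound: leaving out 1 library gave 36 to 37 for wild-type priming, 33 to 35 for knock-out priming, 27 to 30 for NKG2D in wild type and 32 to 33 in knock-out. In fresh cells the genotype count of 0 became 1 (DESeq2), 5 (limma voom), 4 (no filter) and 4 (compared libraries alone). In that order these settings called 0.92%, 12.8%, 1.99% and 5.86% of all genes, against 0.0673% in the main test. Each share is of the genes tested in that setting, 28359 without a filter and 14864 in the main test. The count stayed 0 without any 1 library. In primed cells the count of 3 became 8 with limma voom and 9 with no filter, and 2 to 8 with 1 library left out. Of all genes limma voom called 28.4%, against 15.5% (2307 of 14864) in the main test. The test without a filter called more genes, 2787, which were 9.83% of its 28359. Leaving out 1 library called 8.79% to 16.8%. After NKG2D the count of 9 became 17 with limma voom and 17 with no filter, and 5 to 10 with 1 library left out. Of all genes limma voom called 42.1%, against 18.2% (2708 of 14864) in the main test. The test without a filter called more genes, 2876, which were 10.1% of its 28359. Leaving out 1 library called 10.7% to 19.8%. For the genotype difference of the priming response the count of 1 became 4 with DESeq2, 7 with limma voom and 0 with RLE factors. It became 8 with no filter, 3 with the stricter filter and 3 with the compared libraries alone. In that order these settings called 14.8%, 28%, 10.4%, 7.54%, 15.8% and 11.7% of all genes, against 10.5% in the main test. Without a filter this was 2139 of 28359 genes, against 1559 of 14864 in the main test. With 1 library left out the count was 0 to 6 (6 without primed knock-out replicate 3). Of all genes 5.45% to 15.9% were called there (11.3% without that replicate). For the genotype difference of the NKG2D response the count of 0 became 2 with limma voom and 4 with no filter. It was 0 to 1 with 1 library left out. Of all genes limma voom called 14.2%, against 3.55% (528 of 14864) in the main test. The test without a filter called more genes, 887, which were 3.13% of its 28359. Leaving out 1 library called 1.57% to 3.88%. The cause of these shifts was not tested.

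Whether replicate numbers pair libraries was not established. Of 9 pairs with the same number and condition 1 had deviations correlated above 0.1, and of 18 with the same number and genotype 6 did. With the same genotype and different numbers it was 10 of 36. With the replicate block the genotype counts were 0 (fresh), 3 (primed) and 7 (NKG2D). Of all genes 0.074%, 14% and 16.4% were called there. The other 6 counts were the same as without the block, 34 for knock-out priming among them. The single priming-response call under the block was not that of Bst2. Each group held 3 libraries, and those of primed knock-out cells differed over the whole set, which limits the precision of the genotype values there.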
